A study of Homo sapiens with 16 samples.

Results

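The nuclear genes of the respiratory chain were followed through an RNA-seq experiment in LNCaP, a human cell line from a prostate cancer that responds to androgen. A gene was taken in when its symbol began with NDUFA, NDUFB, NDUFC, NDUFS, NDUFV, UQCR, COX4, COX5, COX6, COX7, COX8 or ATP5, or was SDHA, SDHB, SDHC, SDHD or CYC1, and its mean raw count over the 16 libraries was at least 10. Of 20531 entries in the count table, 94 had such a symbol and 86 met the minimum, with 42 in complex I, 4 in complex II, 10 in complex III, 12 in complex IV and 18 in complex V. Complexes were assigned by symbol, so NDUFA4, now counted with complex IV, stood with complex I throughout. The symbol rule also took in 7 genes whose products are not subunits, namely the complex I assembly factors NDUFAF1, NDUFAF2, NDUFAF3 and NDUFAF4 together with COX4NB (now EMC8), ATP5S (now DMAC2L) and ATP5SL (now DMAC2). The remaining 79 were subunit genes or copies of them by their symbols, with UQCRHL and ATP5EP2 among them. ATP5S, with a mean count of 14, was the member nearest to the minimum, and ATP5L2, with a mean count of 5.81, was the nearest gene outside it.

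The cells carried either NS, a custom nonsense siRNA that served as control, or a pool of siRNAs against SLIRP, each at 40 nM for 24 h. Serum-free medium then followed for a further 24 h, with ethanol as vehicle or with dihydrotestosterone (DHT), an androgen, at 1 nM. The groups were NS-Veh and SLIRP-Veh for vehicle and NS-1nM DHT and SLIRP-1nM DHT for androgen, each with 4 libraries, so transfection and serum withdrawal were shared by all 4 groups. The 4 libraries came from 2 experiments in a single cell line, and p-values therefore describe the spread between these libraries. SLIRP is an RNA-binding protein that is best known as the partner of LRPPRC in keeping mitochondrially encoded mRNAs stable, and it also acts on nuclear receptors.

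Library totals ran from 436353 to 1689708 counts, of which the 86 members took 3997 to 14407 counts, or 0.834% to 0.932% of a library. SLIRP mRNA, listed as C14orf156, lay at 44.7 to 62.86 CPM (each count relative to its library's total, after edgeR's TMM scaling) in the 8 NS libraries and at 1.4 to 7.98 CPM in the 8 libraries with SLIRP siRNA, a log2 fold change of -3.89 with an SE of 0.207 and a false discovery rate (FDR) of 1.38e-15 in the quasi-likelihood test of edgeR. All 10 luminal prostate markers were detected, and their summed level was 6280 to 7290 CPM in NS libraries against 4090 to 4590 CPM with SLIRP siRNA, with 5 of the 10 lower and 0 higher in the edgeR test of SLIRP siRNA against NS at an FDR of 0.01. In vehicle alone 6 of these markers were lower and 1 was higher, and in DHT alone 6 were lower and 3 higher. Basal markers summed to at most 1.53 CPM with 2 of 3 (KRT5, KRT14 and TP63) at 0 in every library, leukocyte markers to at most 7.76 CPM, endothelial markers to at most 17.3 CPM and stromal markers to at most 27 CPM. The part of these luminal differences in the results on respiratory genes was not tested.

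The respiratory chain passes electrons from NADH and succinate to oxygen in the inner mitochondrial membrane and uses the proton gradient to make ATP. Complex I oxidises NADH, complex II oxidises succinate, complex III hands electrons from ubiquinol to cytochrome c, complex IV reduces oxygen and complex V is the ATP synthase. Complexes I, III, IV and V are built from subunits of both genomes, whereas complex II is wholly nuclear-encoded. Transcription of the nuclear genes is commonly attributed to the factors NRF1, GABP (an ETS factor) and YY1, which bind close to the start of many of them.

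Promoter sequences were found for 70 of the 86 members in the RefSeq table (GRCh38.p14, 250 bases before to 50 bases after each start) and searched on both strands for 3 words. The NRF1 core GCGCANGCG occurred in 30% of member promoters, against 11.2% of the promoters of genes listed in the count table. The ETS word CCGGAAG also occurred in 30%, against 14.4%, and the YY1 word AAGATGGC in 15.7%, against 3.99%. The listed genes were taken without the count minimum set for members, and the part of expression level in these differences was not tested. None of the words contains another, and a match is only a run of letters in this window. The 80 bases before the RefSeq start are printed for 6 called members whose stretch holds a word, because UQCRFS1 and ATP5C1 rose with SLIRP siRNA whereas NDUFB4, ATP5G2, NDUFA1 and COX8A fell. The NRF1 core, or its reverse complement, is in capitals in UQCRFS1, ATP5C1, NDUFB4 and ATP5G2, and the reverse complement of the ETS word in NDUFA1 and COX8A. Each stretch was placed in hg19 by an exact match at a single position. GENCODE has earlier starts for 3 of the genes, so that the last 30 bases for ATP5C1 and the last 8 for NDUFB4 lie within an annotated exon, and all 80 for ATP5G2 lie inside the gene but outside its exons.
UQCRFS1 (chr19:29704059-29704138, minus strand): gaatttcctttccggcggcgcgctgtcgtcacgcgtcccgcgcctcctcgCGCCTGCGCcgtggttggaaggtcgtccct
ATP5C1 (chr10:7830060-7830139, plus strand): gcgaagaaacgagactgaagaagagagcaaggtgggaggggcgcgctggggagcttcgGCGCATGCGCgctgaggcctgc
NDUFB4 (chr3:120315103-120315182, plus strand): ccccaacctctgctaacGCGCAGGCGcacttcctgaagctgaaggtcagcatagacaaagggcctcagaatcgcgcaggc
ATP5G2 (chr12:54069868-54069947, minus strand): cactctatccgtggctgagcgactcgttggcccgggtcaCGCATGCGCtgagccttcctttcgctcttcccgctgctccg
NDUFA1 (chrX:119005715-119005794, plus strand): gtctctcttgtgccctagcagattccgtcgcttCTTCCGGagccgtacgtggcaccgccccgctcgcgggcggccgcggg
COX8A (chr11:63742012-63742091, plus strand): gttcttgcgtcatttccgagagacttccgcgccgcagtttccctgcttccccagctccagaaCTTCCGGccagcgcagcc

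The words stood in the promoter windows of genes that rose and of genes that fell, some of them after the start. Among members with a promoter in the table, at least 1 of the 3 words was present in 6 of 7 that rose, 6 of 12 that fell and 29 of 51 that were not called. An NRF1 core was present in 3 of those that rose, 2 of those that fell and 16 of those not called.

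SLIRP siRNA was first compared with NS over vehicle and DHT together, 8 libraries against 8. The nuclear respiratory genes did not move in a single direction. At an FDR of 0.01 in edgeR, 22 of the 86 members (25.6%) were called, against 35.2% of the 10167 genes tested, with 10 members (11.6%) higher and 12 (14%) lower, against 17.8% and 17.4% of all genes. All 86 members passed the filter on low counts. The median log2 fold change was -0.0502 over the members and -0.0145 over all genes tested, and the median absolute log2 fold change was 0.177 over the members and 0.286 over all genes.

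**Figure D1:**
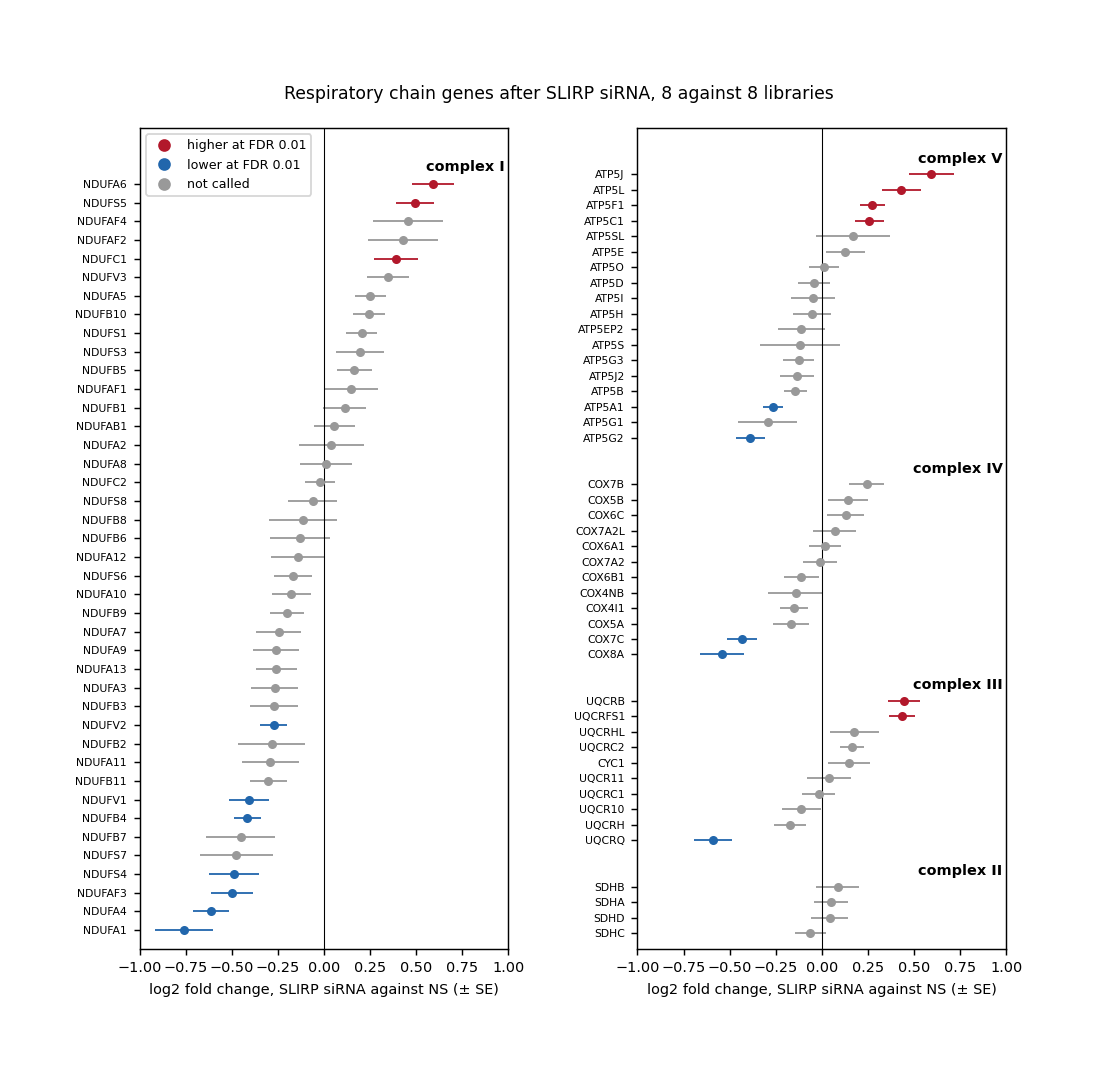
Log2 fold change (± SE) of 85 of the 86 members with SLIRP siRNA against NS, 8 against 8 libraries, sorted within each complex, with members called at an FDR of 0.01 in red (higher) or blue (lower). Calls run from -0.76 (NDUFA1) to 0.59 (ATP5J), complexes I, III and V hold calls on both sides of 0, complex IV holds 2 falls, and the 4 complex II genes lie between -0.063 and 0.086. Complexes follow the symbols, so NDUFA4 is plotted with complex I.

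Calls were more frequent among the members with more counts. Among the 32 members with a mean count of at least 100, 14 (43.8%) were called, against 50.2% of all such genes, and among the 54 members below 100 counts, 8 (14.8%) were called, against 29.8%. The 95% confidence interval of the fold change stayed within 1.5-fold in either direction for 65 of the 86 members. Libraries with SLIRP siRNA and NS libraries did not overlap for 7 members (8.14%), against 15.2% of all genes tested. Among them NDUFA6, UQCRFS1 and ATP5F1 lay above in every library with SLIRP siRNA, and UQCRQ, COX7C and ATP5A1 lay below.

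Complex I had 4 members that rose (9.52%) and 7 that fell (16.7%), against 17.8% and 17.4% of all genes, with a median log2 fold change of -0.136 over 42 genes, 25 of which had a negative value. The falls include NDUFA4 and the assembly factor NDUFAF3, which their symbols placed here. The largest fall was that of NDUFA1 (chromosome X, 119005795 to 119010625), a small membrane subunit needed for assembly of the complex. NDUFA1 lay at 39.67, 82.68, 50.42 and 51.76 CPM in NS-Veh, 55.1, 47.41, 38.02 and 50.04 CPM in NS-1nM DHT, 27.01, 23.29, 18.68 and 39.99 CPM in SLIRP-Veh and 20.71, 42, 26.98 and 35.91 CPM in SLIRP-1nM DHT. The levels with SLIRP siRNA were lower, with the highest of them above the lowest NS library, and the log2 fold change was -0.76 (SE 0.157, FDR 1.80e-04).

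NDUFA4 (chromosome 7, 10971570 to 10979780) was first assigned to complex I and is now counted with complex IV, with the current symbol COXFA4. Its level was 107.1, 105.6, 108.7 and 111.5 CPM in NS-Veh and 98.77, 103.2, 107.1 and 82.68 CPM in NS-1nM DHT. With SLIRP siRNA it was 59.89, 66.77, 65.39 and 91.29 CPM in vehicle and 69.89, 67.2, 67.46 and 52.67 CPM in DHT. Replicate 4 of SLIRP-Veh was the only library with SLIRP siRNA above an NS library, and the fold change was -0.61 on the log2 scale (SE 0.0998, FDR 7.06e-06).

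NDUFB4 (chromosome 3, 120315175 to 120321354), a membrane arm subunit, had, with ATP5B, the highest level per kb of transcript in NS-Veh. It lay at 317.4 to 387.7 CPM in NS-Veh, at 312.8 to 366.3 CPM in NS-1nM DHT, at 267.1 to 315.6 CPM in SLIRP-Veh and at 215.6 to 273.7 CPM in SLIRP-1nM DHT. Thus the libraries of a treatment did not overlap between siRNAs, and the log2 fold change was -0.42 (SE 0.0750, FDR 3.22e-05). The assembly factor NDUFAF3 (-0.50, SE 0.115, FDR 6.19e-04) also fell. NDUFS4, an accessory subunit of the NADH-oxidising module that was named here after its value was seen, fell by 0.49 on the log2 scale (SE 0.135, FDR 0.0036). Its call was lost without replicate 3 of NS-1nM DHT (FDR 0.0146) or without replicate 1 of SLIRP-Veh (FDR 0.0142). NDUFAF3 shares exonic sequence with DALRD3 on the opposite strand, and the counting could not be checked for strand.

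The core subunits of complex I, which carry the flavin and iron-sulphur clusters, included NDUFV1 and NDUFV2 among the falls. NDUFV1, the NADH-binding flavoprotein, lay at 82.13 to 106.1 CPM in NS libraries and 54.6 to 103.5 CPM with SLIRP siRNA (-0.41, SE 0.108, FDR 0.00247). NDUFV2, its iron-sulphur partner, fell by 0.27 on the log2 scale (SE 0.0748, FDR 0.00317), and 89.4% of the 50-base words of its transcript also occur in other annotated loci, so that its count is uncertain. The call of NDUFV2 was lost without replicate 3 of NS-1nM DHT (FDR 0.0142), replicate 1 of SLIRP-Veh (FDR 0.0101) or replicate 3 of SLIRP-Veh (FDR 0.0108). Core members that were not called included NDUFS1 (0.20, FDR 0.0439), NDUFS3 (0.20, FDR 0.232), NDUFS7 (-0.48, FDR 0.0462) and NDUFS8 (-0.063, FDR 0.723).

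Accessory subunits of complex I were among its rises. NDUFA6 (chromosome 22, 42481530 to 42486888) lay at 31.74, 50.52, 52.39 and 50.16 CPM in NS-Veh, 54.06, 51.23, 44.93 and 59.47 CPM in NS-1nM DHT, 62.24, 74.53, 66.72 and 88.68 CPM in SLIRP-Veh and 76.36, 67.2, 73.24 and 98.15 CPM in SLIRP-1nM DHT. All 8 libraries with SLIRP siRNA were higher than all 8 NS libraries, and the log2 fold change was 0.59 (SE 0.113, FDR 7.30e-05). NDUFS5 (chromosome 1, 39491990 to 39500308) rose by 0.49 (SE 0.102, FDR 1.86e-04), from 62.01 to 114.4 CPM in NS libraries to 102.2 to 154.8 CPM with SLIRP siRNA. NDUFC1 rose by 0.39 (SE 0.118, FDR 0.00701), with 31.97 to 48.59 CPM in NS libraries and 40.6 to 59.99 CPM with SLIRP siRNA, a call that 10 single libraries could end when left out (FDR 0.01 to 0.0177). The remaining assembly factors had positive values that were not called, with NDUFAF4 at 0.45 (FDR 0.0486), NDUFAF2 at 0.43 (FDR 0.0640) and NDUFAF1 at 0.15 (FDR 0.440).

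**Figure D2:**
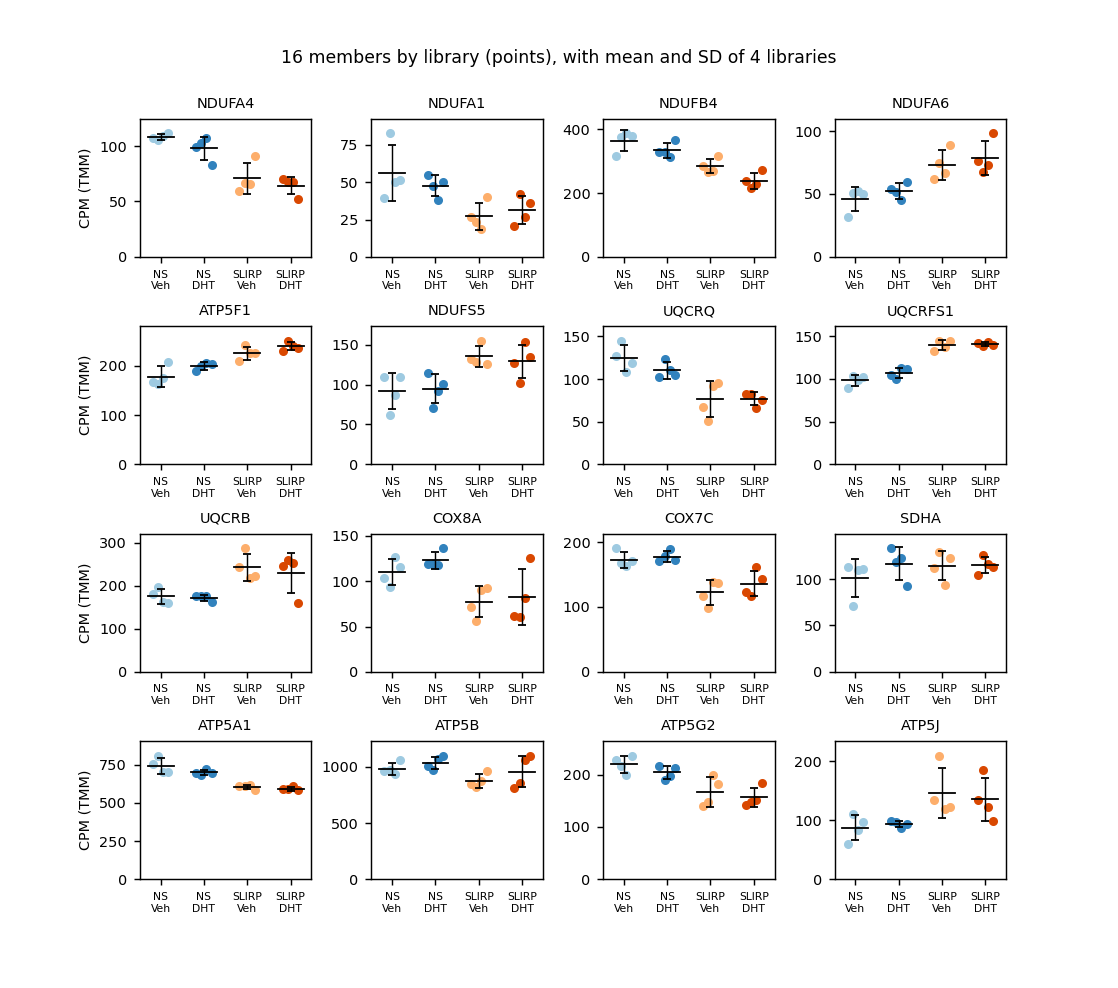
CPM (TMM-scaled) of 16 members in each library, with points for libraries and horizontal lines and bars for the mean and SD of 4 libraries in each of the 4 groups. NDUFA4, NDUFB4, UQCRQ, COX7C and ATP5A1 sit lower in both groups with SLIRP siRNA, NDUFA6, UQCRFS1 and ATP5F1 sit higher, and SDHA ranges over 71.2 to 133 CPM in NS libraries and 93.4 to 129 CPM with SLIRP siRNA.

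Complex II, succinate dehydrogenase, had no call among its 4 genes, against 35.2% of all genes, a number too small to set the complex apart. SDHA, the flavoprotein, lay at 113.1, 71.19, 110 and 110.7 CPM in NS-Veh and at 112.1, 128.9, 93.41 and 122.6 CPM in SLIRP-Veh. SDHB, the iron-sulphur subunit, lay at 33.7 to 62 CPM in NS libraries and 46.4 to 69.4 CPM with SLIRP siRNA. The membrane anchors SDHC and SDHD lay at 137 to 188 and 70.1 to 106 CPM in NS libraries and at 116 to 177 and 75.1 to 117 CPM with SLIRP siRNA.

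For all 4 genes the libraries of both siRNAs overlapped. The log2 fold changes were 0.048 for SDHA (SE 0.0930), 0.086 for SDHB (SE 0.117), -0.063 for SDHC (SE 0.0852) and 0.043 for SDHD (SE 0.0997), with a lowest FDR of 0.574. Their 95% confidence intervals ran from -0.23 to 0.314 on the log2 scale, all within 1.5-fold. Besides edgeR, DESeq2 and limma each called 0 of the 4, and 0 of the 4 had an unadjusted p under 0.05 in any of these tools.

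Complex III had 2 members that rose and 1 that fell among 10 (20% and 10%), close to the 17.8% and 17.4% of all genes. UQCRFS1 (chromosome 19, 29696227 to 29704058), the Rieske iron-sulphur protein, lay at 89.26, 103.3, 98.88 and 101.9 CPM in NS-Veh, 105, 100.2, 112.3 and 111 CPM in NS-1nM DHT, 132.1, 144.4, 137.4 and 144.3 CPM in SLIRP-Veh and 142.4, 138.6, 142.6 and 139.6 CPM in SLIRP-1nM DHT. Every library with SLIRP siRNA was above every NS library, and the log2 fold change was 0.43 (SE 0.0708, FDR 7.88e-06). UQCRB, a ubiquinone-binding subunit, rose by 0.44 (SE 0.0870, FDR 9.68e-05), with 160.8 to 197.5 CPM in NS libraries and 160.4 to 287.3 CPM with SLIRP siRNA, where replicate 4 of SLIRP-1nM DHT was the lowest.

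UQCRQ (chromosome 5, 132202322 to 132204539), a small accessory subunit, moved the other way. It lay at 126.9, 144.7, 108 and 118.6 CPM in NS-Veh, 101.9, 123.9, 110.6 and 104.4 CPM in NS-1nM DHT, 67.52, 51.24, 92.07 and 95.64 CPM in SLIRP-Veh and 82.83, 82.6, 66.5 and 75.81 CPM in SLIRP-1nM DHT. All libraries with SLIRP siRNA were below all NS libraries, and the log2 fold change was -0.59 (SE 0.102, FDR 1.81e-05). UQCRQ overlaps an exon of GDF9, and UQCRB an exon of UQCRB-AS1, on the opposite strand. CYC1, the cytochrome c1 subunit (0.15, FDR 0.307), UQCRC1 (-0.017, FDR 0.900) and UQCRC2 (0.16, FDR 0.0423), the core proteins, were not called.

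Complex IV had 2 falls among 12 members (16.7%), near the 17.4% of all genes, and 0 rises in edgeR, against 17.8%, and DESeq2 and limma also called 0 rises. The 12 members include COX4NB and leave out NDUFA4, which fell (-0.61, FDR 7.06e-06) and was grouped with complex I by its symbol. COX7B had the only unadjusted p under 0.05 on the higher side (0.24, SE 0.0944, FDR 0.0338). COX8A (chromosome 11, 63742092 to 63744015), a small transmembrane subunit, lay at 103.1, 94.16, 127 and 116.2 CPM in NS-Veh, 118.5, 119.3, 117.5 and 136.3 CPM in NS-1nM DHT, 71.63, 55.9, 90.74 and 92.16 CPM in SLIRP-Veh and 62.12, 60.2, 81.91 and 126.1 CPM in SLIRP-1nM DHT. Of the libraries with SLIRP siRNA, only replicate 4 of SLIRP-1nM DHT lay among the NS values, and the log2 fold change was -0.54 (SE 0.119, FDR 3.85e-04).

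COX7C (chromosome 5, 85913745 to 85916779), another small subunit, was the member of complex IV whose libraries did not overlap. It lay at 190.4, 167.7, 163.1 and 170.4 CPM in NS-Veh, 170.5, 178.9, 189.2 and 172.6 CPM in NS-1nM DHT, 116.3, 97.82, 138.8 and 136.5 CPM in SLIRP-Veh and 122.9, 117.6, 160.9 and 142.8 CPM in SLIRP-1nM DHT (-0.43, SE 0.0816, FDR 6.06e-05). COX4I1 (-0.15, SE 0.0763, FDR 0.105), COX5A (-0.17, SE 0.0982, FDR 0.166) and COX5B (0.14, SE 0.109, FDR 0.301) were not called. COX4NB, which is no subunit, had a value of -0.14 (FDR 0.476).

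Complex V had 4 rises and 2 falls among 18 members, 33.3% called against 35.2% of all genes. Differences between its subunits were not tested. In the catalytic head, ATP5A1 (chromosome 18, 43660214 to 43684300), the alpha subunit, fell. It lay at 751.7, 808.4, 700.7 and 704.7 CPM in NS-Veh, 693.4, 685.9, 724 and 697 CPM in NS-1nM DHT, 611.8, 608.7, 616.5 and 586.9 CPM in SLIRP-Veh and 592.7, 588, 612.9 and 582.5 CPM in SLIRP-1nM DHT. The 2 sets of 8 libraries did not overlap although the difference was small (-0.26, SE 0.0526, FDR 1.15e-04). ATP5B, the catalytic beta subunit that pairs with it, had 935.8 to 1094 CPM in NS libraries and 814 to 1097 CPM with SLIRP siRNA and was not called (-0.14, SE 0.0641, FDR 0.0660). ATP5C1, the gamma subunit of the central stalk, was named after its value was seen and rose by 0.26 (SE 0.0787, FDR 0.00765), a call that 7 single libraries could end when left out (FDR 0.0119 to 0.0195).

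In the peripheral stalk and the membrane part, ATP5J, ATP5F1 and ATP5L rose and ATP5G2 fell. ATP5J (chromosome 21, 27088815 to 27107984), coupling factor F6, lay at 59.5, 110.2, 83.16 and 97.94 CPM in NS-Veh, 98.77, 97.11, 87.26 and 94.28 CPM in NS-1nM DHT, 135, 209.6, 120.1 and 123.5 CPM in SLIRP-Veh and 134.6, 186.2, 122.4 and 98.95 CPM in SLIRP-1nM DHT. Only replicate 4 of SLIRP-1nM DHT fell within the NS range, and the log2 fold change was 0.59 (SE 0.122, FDR 1.69e-04). ATP5J shares exonic sequence with GABPA on the opposite strand, which itself was called higher (0.39, SE 0.0967, FDR 0.00133).

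ATP5L, subunit g, rose by 0.43 (SE 0.104, FDR 9.73e-04), with 77.35 to 108.1 CPM in NS libraries and 101.3 to 167.7 CPM with SLIRP siRNA. ATP5F1, the b subunit of the stalk, rose by 0.27 (SE 0.0687, FDR 0.00145), from 163.1 to 208.6 CPM in NS libraries to 210.2 to 250.6 CPM with SLIRP siRNA, with no overlap. ATP5G2 (chromosome 12, 54026510 to 54071192), which encodes the c subunit of the membrane ring, fell. Its level was 228.1, 215.9, 199.1 and 235.7 CPM in NS-Veh, 216.2, 190.4, 197 and 213.2 CPM in NS-1nM DHT, 139.7, 147.5, 198.8 and 181.7 CPM in SLIRP-Veh and 142.4, 148.4, 151.3 and 183.5 CPM in SLIRP-1nM DHT (-0.39, SE 0.0800, FDR 1.79e-04). The other genes for the same peptide, ATP5G1 (-0.29, SE 0.161, FDR 0.137) and ATP5G3 (-0.13, SE 0.0825, FDR 0.219), were not called, nor were ATP5S (-0.12, FDR 0.681) and ATP5SL (0.17, FDR 0.515).

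Transcript overlap limits some of these values. Among called members, COX8A, ATP5L and NDUFV2 share exons with annotated readthrough loci, and 28.5% of the 50-base words of COX8A, 23.5% of those of ATP5L, 15.5% of those of UQCRFS1 and 12.8% of those of NDUFB4 also occur elsewhere in the annotated transcripts. Members that share over 10% of such words with another gene of the count table were UQCRH (33.4%), UQCRHL (53.7%), SDHA (18.7%) and ATP5EP2 (14%), and none of these was called.

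Levels were also summed over the members of each complex in each library. Complex I summed to 3017 ± 75.7 CPM (SD, n = 8) in NS libraries and 2885 ± 125 CPM with SLIRP siRNA, and complex II to 396.8 ± 18.2 and 398.5 ± 28.4 CPM. Complex III was 1096 ± 35.5 CPM (1039 to 1149) in NS libraries and 1186 ± 43.7 CPM (1118 to 1249) with SLIRP siRNA. The ranges of complex III overlapped, with the higher values in libraries with SLIRP siRNA.

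Complex IV was 1234 ± 35 CPM in NS libraries and 1143 ± 116 CPM with SLIRP siRNA, and replicate 2 of SLIRP-Veh was lowest at 922.3 CPM. Complex V was 3290 ± 97.3 and 3172 ± 150 CPM. All 86 members together made 9034 ± 197 CPM in NS libraries and 8784 ± 332 CPM with SLIRP siRNA. The sums are descriptions without a test.

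**Figure D3:**
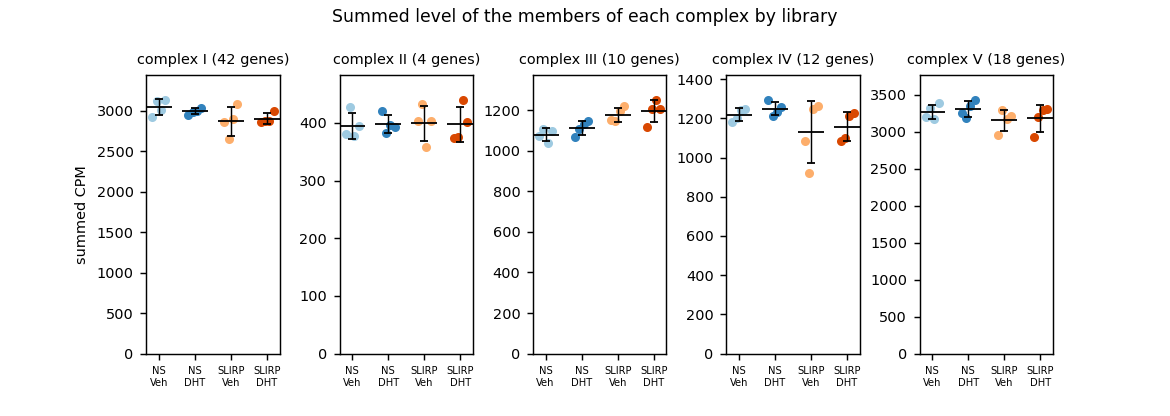
Summed CPM of the members of each complex in each library, with points for libraries and lines and bars for the mean and SD of 4 libraries a group. Complex III sits at 1118 to 1249 CPM with SLIRP siRNA against 1039 to 1149 CPM in NS libraries, and complex IV spreads most in SLIRP-Veh, where its lowest library is at 922.3 CPM.

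The effect of SLIRP siRNA was next examined in vehicle and in DHT. These contrasts set different libraries against each other, but both came from a single model of all 16 libraries. They shared the filter, the scaling and the estimate of spread, so their calls are not independent. In vehicle, 15 members (17.4%) were called, 7 higher and 8 lower, against 21.7% of 10684 genes tested (11.8% higher and 9.95% lower). In DHT, 14 members (16.3%) were called, 5 higher and 9 lower, against 24.4% of all genes (12.8% higher and 11.6% lower). Of the called members, 12 were shared, which is 80% of those in vehicle and 85.7% of those in DHT. The matching share over all called genes was not counted, so these percentages do not set the members apart. Leaving out single libraries gave 4 to 7 higher and 5 to 8 lower members in vehicle, and 3 to 7 higher and 3 to 9 lower members in DHT. The fewest rises in vehicle (4) were counted without replicate 3 of SLIRP-Veh and the fewest falls (5) without replicate 4 of NS-Veh. In DHT the fewest rises (3) were counted without replicate 2 or 3 of SLIRP-1nM DHT and the fewest falls (3) without replicate 2 or 4 of NS-1nM DHT. DESeq2 called 5 higher and 5 lower in DHT, whereas limma on the deposited normalized score with a pseudocount of 1 called 0 higher and 6 lower, with 10 higher members at an unadjusted p under 0.05.

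The shared members included NDUFA6, NDUFS5, UQCRB and UQCRFS1, which rose, and NDUFA4, NDUFB4, UQCRQ, COX7C, COX8A, ATP5A1 and ATP5G2, which fell. NDUFA4 changed by -0.62 in vehicle (SE 0.136, FDR 4.34e-04) and by -0.62 in DHT (SE 0.136, FDR 3.83e-04). UQCRFS1 changed by 0.49 (SE 0.104, FDR 3.19e-04) and 0.39 (SE 0.0982, FDR 0.00168), and NDUFA6 by 0.59 (SE 0.164, FDR 0.00471) and 0.61 (SE 0.151, FDR 0.00167).

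The calls in DHT were often lost under other settings or with single libraries left out. Of 27 such alternatives, 19 ended the DHT call of COX8A, 16 that of ATP5A1, 14 that of COX7C and 9 that of ATP5G2, with FDR values of at most 0.0519. The calls of NDUFA4 and NDUFB4 in DHT held in all 27. The number of members called in both treatments ranged from 3 with limma, through 8 with DESeq2, to 13 with the replicate number in the model, and from 6 to 11 with single libraries left out.

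NDUFA1 (-0.93, SE 0.214, FDR 8.46e-04), ATP5J (0.70, SE 0.164, FDR 9.57e-04) and ATP5L (0.49, SE 0.144, FDR 0.00748) were called in vehicle alone. In DHT they stood at -0.59 (FDR 0.0234), 0.48 (FDR 0.0147) and 0.36 (FDR 0.0376). NDUFAF3 (-0.60, SE 0.156, FDR 0.00252) and NDUFV1 (-0.48, SE 0.144, FDR 0.00871) were called in DHT alone, with -0.36 (FDR 0.0911) and -0.35 (FDR 0.0580) in vehicle, and 18 of the 27 alternatives ended the call of NDUFV1 in DHT (FDR up to 0.0846). These 5 are not shown to differ between treatments, since the test of the difference called none of them.

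NDUFS4, NDUFV2, NDUFC1, ATP5C1 and ATP5F1 were called only with both treatments together. All 22 members called over both treatments had the same sign in vehicle and in DHT, which their selection on the pooled value of the same libraries largely fixed. Over the 86 members the fold changes in vehicle and in DHT correlated across genes with a Pearson r of 0.73 and 63 (73.3%) had the same sign, against 0.83 and 81.6% for all genes tested. Genes are not independent replicates, and these are descriptions.

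**Figure D4:**
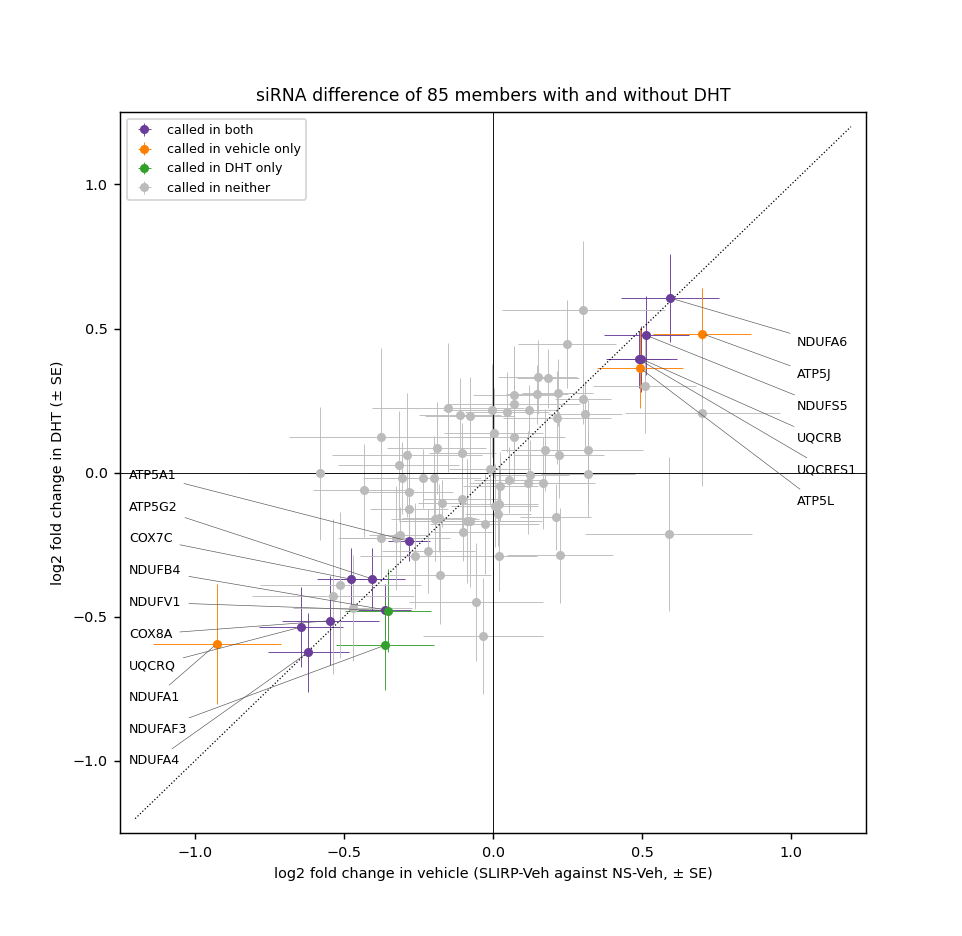
Log2 fold change (± SE) of 85 of the 86 members with SLIRP siRNA against NS in vehicle (horizontal axis) and in 1 nM DHT (vertical axis), coloured by where the member was called at an FDR of 0.01, with the dotted line marking equal values. The plotted members called in both lie near the dotted line, 7 on the lower side and 4 on the higher side, and 3 were called in vehicle only and 2 in DHT only.

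DHT itself was compared with vehicle in the 8 NS libraries, to see whether a low dose of androgen moved these genes. In edgeR 0 of the 86 members were called, against 1.31% of 10367 genes, and 4 members (4.65%) had an unadjusted p under 0.05, against 14.3% of all genes. DESeq2 and limma also called 0, with 2 and 4 members at an unadjusted p under 0.05. The lowest adjusted values were those of NDUFS8 (0.38, SE 0.152, FDR 0.212), ATP5G1 (0.43, SE 0.188, FDR 0.277) and NDUFS1 (-0.23, SE 0.102, FDR 0.285).

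NDUFS8, an iron-sulphur subunit, lay at 29.75, 50.52, 53.04 and 50.96 CPM in NS-Veh and 59.26, 62.7, 61.34 and 68.9 CPM in NS-1nM DHT, without overlap. In this comparison 3 of the 86 members (3.49%) had no overlap. The matching share over all genes was not counted, so this number does not set the members apart. NDUFS8 was picked by its p-value in the same libraries, so its separation adds no support. Over the members the fold changes ran from -0.43 (ATP5S) to 0.43 (ATP5G1) with a median of 0.0283, and 75 of the 86 confidence intervals stayed within 1.5-fold.

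In cells with SLIRP siRNA, DHT against vehicle gave 0 called members in edgeR, against 1.17% of 10684 genes. At an unadjusted p under 0.05 there were 8 members (9.3%), against 15.6% of all genes, and DESeq2 and limma called 0, with 4 and 6 at that level. The lowest adjusted values were those of NDUFB4 (-0.25, SE 0.0919, FDR 0.144), NDUFB8 (0.63, SE 0.238, FDR 0.161) and ATP5G3 (0.27, SE 0.108, FDR 0.193), and 71 of 86 intervals stayed within 1.5-fold.

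The difference in DHT response between SLIRP siRNA and NS was called for 0 of 86 members and for 0% of 10684 genes in edgeR. DESeq2 and limma called 0 members as well. At an unadjusted p under 0.05 there were 3 members in edgeR, COX6A1 (-0.36, SE 0.164), NDUFS8 (-0.51, SE 0.242) and ATP5SL (-0.80, SE 0.388), each with an FDR of 0.9999, and 388 genes (3.63%) in all. This contrast was the least precise, with a median SE of 0.207 over the members and 48 of 86 intervals within 1.5-fold, so smaller differences were not detectable at this depth.

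Levels between members were compared per kb of transcript, with the length of the MANE transcript in GENCODE on hg19. In NS-Veh the median over members was 55.7 CPM per kb for complex I, 57 for complex II, 70.9 for complex III, 150 for complex IV and 126 for complex V. NDUFB4 (561 ± 49.3 CPM per kb, SD, n = 4) and ATP5B (559 ± 31) were highest and did not differ beyond their spread. The lowest were ATP5S at 6.44 and NDUFA9 at 7.06 CPM per kb.

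Levels depended on which transcript length was used. With the median length of all basic coding transcripts in place of MANE the complex medians were 69.4, 74.2, 79.6, 187 and 141 CPM per kb. ATP5A1 was at 129 CPM per kb with the MANE length and 353 with the median length, UQCRB at 20.7 and 272, and NDUFS1 at 17.4 and 84.9. NDUFB4 and ATP5B were the highest of the members with both lengths.

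**Figure D5:**
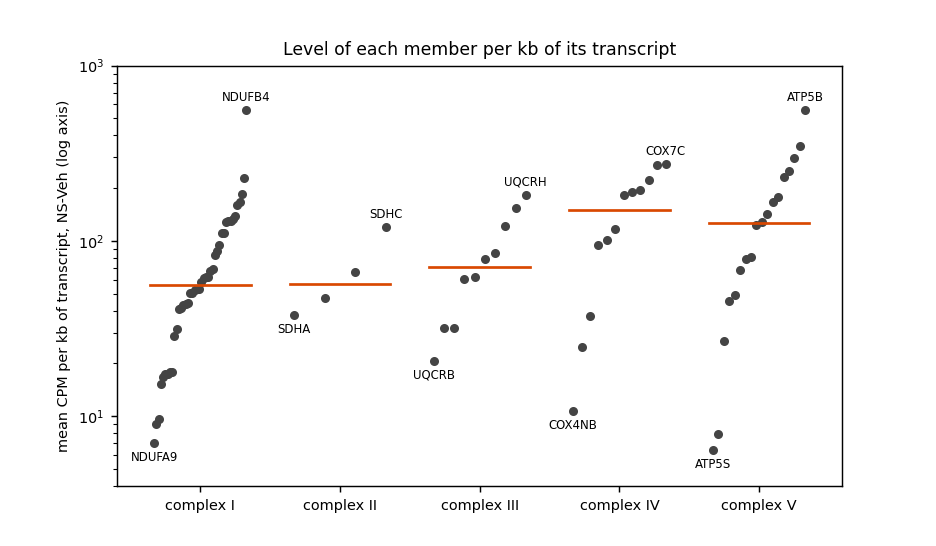
Mean CPM per kb of MANE transcript in NS-Veh (log axis) for each of the 86 members, grouped by complex, with a horizontal line at the median of each complex and names at the highest and lowest members. The medians of complexes IV (150) and V (126) lie above those of complexes I (55.7), II (57) and III (70.9).

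Several subunits are encoded by sets of genes with tissue-specific forms, and LNCaP cells expressed the widespread forms. COX4I1 had 272 ± 13.7 CPM per kb in NS-Veh, whereas COX4I2 had 4 counts in all 16 libraries. COX6A1 had 184 CPM per kb, while COX6A2, the form of heart and skeletal muscle, had 0 of 16528440 counts, which allows up to 0.1815 CPM. COX6B1 had 189 CPM per kb and COX6B2, the testis form, 2 counts.

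COX7A2 had 195 ± 9.48 CPM per kb, COX7A2L, which acts in supercomplexes, 24.7 ± 7.57, and COX7A1, the muscle form, 2 counts. COX7B stood at 37.5 CPM per kb and COX7B2 at 11 counts in all. COX8C had 0 counts, with the same limit as COX6A2, and NDUFA4L2, a hypoxia-responsive relative of NDUFA4, had 33 counts in the 16 libraries together. Such limits cover counting error only.

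Of the genes for the c subunit of complex V, ATP5G2 had the highest level. In NS-Veh ATP5G2 had 348 ± 25.3 CPM per kb, ATP5G3 49.4 ± 6.34 and ATP5G1 45.5 ± 9.1, and with this MANE length the latter pair did not differ beyond its spread. With the median transcript length the values were 230, 152 and 54.6 CPM per kb, so ATP5G2 stayed highest but by less, and ATP5G3 stood above ATP5G1.

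Genes that assemble the complexes, carry electrons or adenine nucleotides, or control the subunit genes were read from lists written beside the members, and the test was again SLIRP siRNA against NS with 35.2% of all genes called. Of 9 further assembly factors of complex I, 1 was called, NUBPL, which inserts iron-sulphur clusters (-0.65, FDR 0.0022). Of 25 assembly factors of complexes II to V, 1 rose, ATPAF1 of the ATP synthase (0.48, FDR 3.88e-06). In that list 3 fell, the complex IV factors COA3 (-0.56, FDR 3.51e-04) and COX11 (-0.46, FDR 8.61e-04) and the complex III factor UQCC1 (-0.63, FDR 0.00419).

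Of 11 carriers and partners, 3 rose and 2 fell. ATPIF1, the inhibitor of the ATP synthase (0.53, FDR 7.32e-06), GPD2, the mitochondrial glycerol-3-phosphate dehydrogenase (0.49, FDR 2.47e-05), and the adenine nucleotide carrier SLC25A5 (0.33, FDR 8.52e-04) rose, whereas ETFB of the electron transfer flavoprotein (-0.34, FDR 0.00331) and a further adenine nucleotide carrier, SLC25A6 (-0.22, FDR 0.00804), fell. CYCS, cytochrome c, was not called (0.15, FDR 0.0798).

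Of 10 nuclear regulators 8 were tested, and 2 rose, PPRC1, a coactivator related to PGC-1 (0.57, FDR 2.99e-04), and GABPA, the DNA-binding subunit of GABP (0.39, FDR 0.00133), which shares exonic sequence with ATP5J. NRF1 (0.04) and YY1 (-0.02) were not called. PPARGC1A and PPARGC1B did not pass the filter on low counts.

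Of 11 genes for mitochondrial DNA expression 9 were tested, and 3 rose, LRPPRC, the partner of SLIRP (0.56, SE 0.0712, FDR 1.30e-07), TFAM, which packages and transcribes mitochondrial DNA (0.53, FDR 1.01e-04), and MTERF1 (0.55, FDR 0.0078). LRPPRC lay at 195 to 236 CPM in NS libraries and at 270.1 to 380.8 CPM with SLIRP siRNA, without overlap. The gene of this list that fell was SLIRP itself.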

How the data were processed

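RNA from LNCaP cells with NS or SLIRP siRNA, in vehicle or 1 nM DHT, was read as single 50-base ends in 16 libraries. Reads were aligned to hg19 by the authors, who deposited estimated counts for 20531 entries, 29 of them without a symbol, which held whole numbers after rounding, and a normalized score obtained by dividing counts by each library's upper quartile and multiplying by 1000 (13148 genes). The submitters' processing notes name CASAVA and RSEM. The annotation and strand setting are not given in the sources used here.

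Groups and replicate numbers came from the labels. Each group comprises 2 replicates from each of 2 experiments, and which number belongs to which experiment is not given in the sources used here. Libraries of a group differed by more than sampling noise (chi-square over degrees of freedom 1.209 to 2.26). The members and lists were chosen with earlier results of these data known.

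Counts were analysed in R 4.3.3 with edgeR 4.0.16 after TMM scaling and filterByExpr, using the quasi-likelihood test (glmQLFit, glmQLFTest). P-values were adjusted by Benjamini-Hochberg across every tested gene, and calls were made at an FDR of 0.01. The fit of SLIRP siRNA against NS used all 16 libraries, that of DHT in NS cells used the 8 NS libraries, and contrasts of a 4-group model gave the rest. The fits were tested on simulated data. Comparisons that use the same libraries are not independent.

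Named were SLIRP, complex II, core subunits, isoform sets, genes that are not subunits, up to 3 rises and 3 falls per complex and comparison with a mean count of at least 30, the 3 lowest adjusted p-values where no member was called, and called genes of the lists, with regulators. NDUFS4 and ATP5C1 fell outside this rule, as did the sharing and outlying values given for other members. Confidence intervals were at 95% from the fit, and floors of 3 counts cover counting error only.

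Alternatives were DESeq2 1.42.0, upper-quartile and RLE normalization, no filter, at least 10 counts in every library, the replicate block, treatment as a covariate or a 4-group model, only the groups compared, an FDR of 0.05, limma 3.58.1 on the log2 of the deposited normalized score plus 1 or 0.1, a term for replicates 1 and 2 against 3 and 4, and leaving out each library. Coordinates came from GENCODE on hg19. Figures used matplotlib 3.10.9 in Python 3.11.15. The values of 1 member are not reported here, and mitochondrially encoded mRNAs were not analysed here.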

Additional observations from a re-analysis of the deposited data

Results flagged for a closer look

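For the 22 members called with SLIRP siRNA, SLIRP itself and the share of counts taken by all members, 24 measures in all, each group of 4 libraries was checked for a library that stood far from the other 3, measured by Dixon's ratio at its 95% critical value. Of 96 groups, 10 held such a library, and about 4.8 would be expected by chance. The values are given without explanation.

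Among NS libraries, NDUFA6 was at 31.74 CPM in replicate 1 of NS-Veh, below 50.16 to 52.39 CPM in the others, and NDUFB4 was at 317.4 CPM in the same library, below 376.6 to 387.7 CPM. ATP5C1 was at 185 CPM in replicate 2 of NS-1nM DHT, above 167.4 to 167.6 CPM. In replicate 4 of NS-1nM DHT, COX8A was at 136.3 CPM, above 117.5 to 119.3 CPM, and UQCRB at 162.5 CPM, below 175.4 to 175.9 CPM. SLIRP was at 62.86 CPM in replicate 3 of NS-Veh, above 57.33 to 57.52 CPM.

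Among libraries with SLIRP siRNA, ATP5J was at 209.6 CPM in replicate 2 of SLIRP-Veh, above 120.1 to 135 CPM, and NDUFS4 at 33.91 CPM in replicate 4 of SLIRP-Veh, above 21.35 to 22.31 CPM. In replicate 4 of SLIRP-1nM DHT, NDUFA4 was at 52.67 CPM, below 67.2 to 69.89 CPM, and UQCRB at 160.4 CPM, below 245.9 to 260.4 CPM.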

How the results depend on the processing

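No result changed sign while called. In the comparison over both treatments, an FDR of 0.05 gave 17 higher and 15 lower members. The share of all genes at that FDR is not given here, so these counts do not set the members apart. At an unadjusted p under 0.05 in edgeR there were 39 members (45.3%), against 53.1% of all genes. Fits with only replicates 1 and 2, or only replicates 3 and 4, were chosen after seeing the data, and gave 4 higher and 7 lower members, and 4 higher and 4 lower with a median log2 fold change of 0.01338. Leaving out single libraries gave 8 to 11 higher members, 10 to 13 lower and medians of -0.0748 to -0.0197. Calls of NDUFA4, NDUFB4 and UQCRFS1 were kept in all 29 alternatives. ATP5C1 was lost in 11, NDUFC1 in 15, NDUFV2 in 5 and NDUFS4 in 4, and 15 other members were lost only with replicates 1 and 2 alone or 3 and 4 alone. Those of the 15 lost with replicates 3 and 4 alone also had smaller estimates there. Examples are COX8A (-0.33 against -0.54 over all libraries), COX7C (-0.25 against -0.43) and ATP5L (0.24 against 0.43). Those lost with replicates 1 and 2 alone had larger or smaller estimates, as for ATP5A1 (-0.28 against -0.26) and NDUFV1 (-0.31 against -0.41).

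In vehicle, limma on the normalized table gave 5 lower members with either pseudocount. Single libraries left out gave 4 to 7 higher (4 without replicate 3 of SLIRP-Veh), 5 to 8 lower (5 without replicate 4 of NS-Veh) and medians of -0.0611 to 0.00457.

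In DHT, an FDR of 0.05 gave 13 higher and 12 lower members, again without the share of all genes, and DESeq2 5 and 5. At an unadjusted p under 0.05 in edgeR there were 33 members (38.4%), against 43.5% of all genes. Limma with a pseudocount of 1 gave 0 higher, 6 lower and a median of -0.1045, and with 0.1 it gave 1 higher, 5 lower and -0.1046. Single libraries left out gave 3 to 7 higher (3 without replicate 2 or 3 of SLIRP-1nM DHT), 3 to 9 lower and medians of -0.0881 (without replicate 4 of SLIRP-1nM DHT) to 0.016. Fewest were lower without replicate 2 or 4 of NS-1nM DHT (3). There were 4 without replicate 3 of NS-1nM DHT or replicate 1, 2 or 3 of SLIRP-1nM DHT, and 5 without any replicate of NS-Veh, replicate 1 of NS-1nM DHT or replicate 1 of SLIRP-Veh. The cause was not tested.

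For DHT in NS cells, DHT with SLIRP siRNA and their difference, leaving out single libraries gave 0 calls in edgeR, with medians of 0.000201 to 0.0446, 0.004 to 0.0606 and -0.0105 to 0.0642. Replicate numbers were not taken to pair the libraries, since the correlation of same-numbered deviations was 0.000939 to 0.194 over the 4 pairs of groups, although in NS cells 3 of 4 numbers correlated best with themselves between vehicle and DHT. With the number as a block, 11 members were higher and 14 lower over both treatments (median -0.0391), 8 and 8 in vehicle and 7 and 9 in DHT, and it called 0 in the other comparisons. In both NS groups, replicates 1 and 2 and replicates 3 and 4 were closest to each other (chi-square over degrees of freedom 1.214 to 1.365, against 1.435 to 1.86 across). With SLIRP siRNA, replicates 3 and 4 were closest in SLIRP-Veh (1.209) and replicates 1 and 2 in SLIRP-1nM DHT (1.521). Replicates 1 and 2 of SLIRP-Veh (1.883) were further apart than replicates 1 and 3 (1.504). Replicates 3 and 4 of SLIRP-1nM DHT stood at 1.735, against 1.717 for replicates 1 and 3. A term for replicates 1 and 2 against 3 and 4, added after seeing the data, gave 10 higher and 12 lower members over both treatments, 8 and 8 in vehicle, 7 and 9 in DHT and 0 elsewhere. The median SE over both treatments was 0.119 for members with a mean count under 100 and 0.0839 for the others.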
